A study of Canis lupus familiaris with 8 samples.

Results

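TNC, SMOC2, DPT, DAG1 and NCAM1 encode 3 secreted proteins of the extracellular matrix and 2 cell surface adhesion proteins, and their RNA was followed across the 4 groups of a canine mammary carcinoma array study. The members were every gene probe whose accession names 1 of these 5 genes in a RefSeq gene table, which gave 10 of the 43603 probes on the array and 5 of the 1458 gene symbols that could be assigned. The 5 genes were chosen by their measured differences between groups in earlier results of these arrays: TNC, DPT and NCAM1 for Star CSC against Star parent, and SMOC2 and DAG1 for Star parent against Stylo parent. Those differences are therefore given as descriptions with no test. A test is given only where the 4 arrays compared included none of the arrays of the difference named for that gene. Since other differences may also have been in view when the genes were chosen, these tests may not be independent of the choice. The spread in each test was also fitted on all 8 arrays, those of the named difference included.

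The arrays hold total RNA from CMT-Stylo, a canine mammary adenocarcinoma cell line, and CMT-Star, its doxorubicin-resistant subline, raised over months in increasing drug up to 100 nM. Star CSC were CMT-Star cells sorted by flow cytometry for CD44, aldehyde dehydrogenase activity and low or absent CD24, a gate used for cancer stem cells (CSC). Star parent was CMT-Star without sorting, Stylo CSC were CMT-Stylo cells sorted by the same gate, and Stylo parent was CMT-Stylo without sorting. The labels call both Star groups doxorubicin treated and both Stylo groups non treated, and all groups grew in the same serum medium. Each group had 2 arrays, so n = 2 throughout, and nothing in the labels says that replicates were separate cultures, so p-values measure the spread between arrays, which may be technical. CMT-Star is a single resistant subline, and a drop in RNA per cell cannot be told apart from fewer cells carrying the RNA.

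Matricellular proteins are secreted into the matrix but act mainly on how cells attach, move and receive growth factor signals rather than as load-bearing fibres. Tenascin C (TNC) is a large anti-adhesive glycoprotein of remodelling tissue and of tumour stroma, including that of mammary carcinoma. SMOC2 is a calcium-binding protein of the SPARC family, and dermatopontin (DPT) binds decorin and collagen fibrils. Dystroglycan (DAG1) ties laminin of the basement membrane to dystrophin or utrophin in the cell, and NCAM1 is an immunoglobulin-type adhesion molecule best known from nerve and muscle.

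Signal was lowest in Stylo parent, whose arrays had a 75th percentile of 88.8 and 69.5 scanner units where the other 6 arrays had 297 to 540. The share of spots well above background was 46.7% to 47.4% there and 55.5% to 60.7% elsewhere. Levels below are log2 of the processed signal minus the array's own 75th percentile, so 0 is that percentile, and the unscaled signal is given where scaling matters. Slide 1 carried the Stylo arrays and slide 2 the Star arrays, each with its own scan session. Line, doxorubicin treatment and slide therefore cannot be told apart. On each slide the parent arrays took positions 1 and 2 and the CSC arrays positions 3 and 4, so sorting and array position cannot be told apart either. Of 13 luminal epithelial markers, 6 had a named probe, and 4, 3, 3 and 2 of those were well above background on both arrays of Star CSC, Star parent, Stylo CSC and Stylo parent. KRT14, a basal keratin, was above background on all 8 arrays, as were all 6 named fibroblast markers and the luminal marker PGR. So were the endothelial marker VWF, the muscle marker CKM and the adipocyte marker LEP. ESR1, OXTR, the leukocyte marker CD4 and the muscle marker TNNT2 were not above background on any.

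After scaling, TNC was highest in Star parent and lowest in Star CSC. Its brighter probe (A_11_P181843) was well above background on all 8 arrays. The scaled level was -3.15 and -3.18 in Star CSC, 0.72 and 1.04 in Star parent, -1.72 and -1.83 in Stylo CSC, and -0.79 and -0.56 in Stylo parent. No group overlapped another, and the order from high to low was Star parent, Stylo parent, Stylo CSC and Star CSC. Before scaling Star parent was again highest, but Star CSC (60.6 and 51.1 units) overlapped Stylo parent (51.2 and 46.9 units) and was not lowest. The Star CSC level minus that of Star parent was -4.04 ± 0.14 (SE) on the log2 scale, the difference that brought TNC forward. In the Stylo line, whose arrays that difference did not use, TNC fell in Stylo CSC relative to Stylo parent (log2 difference -1.10 ± 0.14, SE), at an adjusted p of 0.000716 in limma, with both Stylo CSC arrays below both Stylo parent arrays. That call depends on how the dim Stylo parent arrays are scaled. The unscaled signal was 94.1 and 83.3 units in Stylo CSC and 51.2 and 46.9 units in Stylo parent, a log2 difference of 0.85 the other way, and spike-in scaling gave 1.00 (adjusted p = 0.0761 in limma). The call was also lost without Stylo parent replicate 2 (-0.99), just under the fold limit. In the Star line the unscaled signal kept the direction, with 60.6 and 51.1 units in Star CSC against 612 and 678 units in Star parent.

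A second, dimmer TNC probe (A_11_P0000026290) was well above background only in Star parent. It read 6.10 and 4.69 units in Star CSC, 76.8 and 94.6 units in Star parent, 13.2 and 12.04 units in Stylo CSC, and 4.03 and 1.89 units in Stylo parent. Where neither array of a group had a probe well above background, its fold is given as a lower bound. It is taken against the lowest signal so rated among all probes of the array, or the probe's own if higher. That signal is not a detection limit for each probe, so the bounds are approximate. On Stylo CSC replicate 1 this probe read 13.2 units without being so rated, where the lowest signal so rated was 11.4. By that bound TNC was at least 10.8-fold lower in Star CSC than in Star parent on this probe, the same direction as on the brighter one. Star parent was at least 2.26-fold higher than Stylo parent. No fold can be given between Stylo CSC and Stylo parent on this probe, and averaging both probes moved the Stylo difference to -0.43 (adjusted p = 0.0535 in limma).

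**Figure D1:**
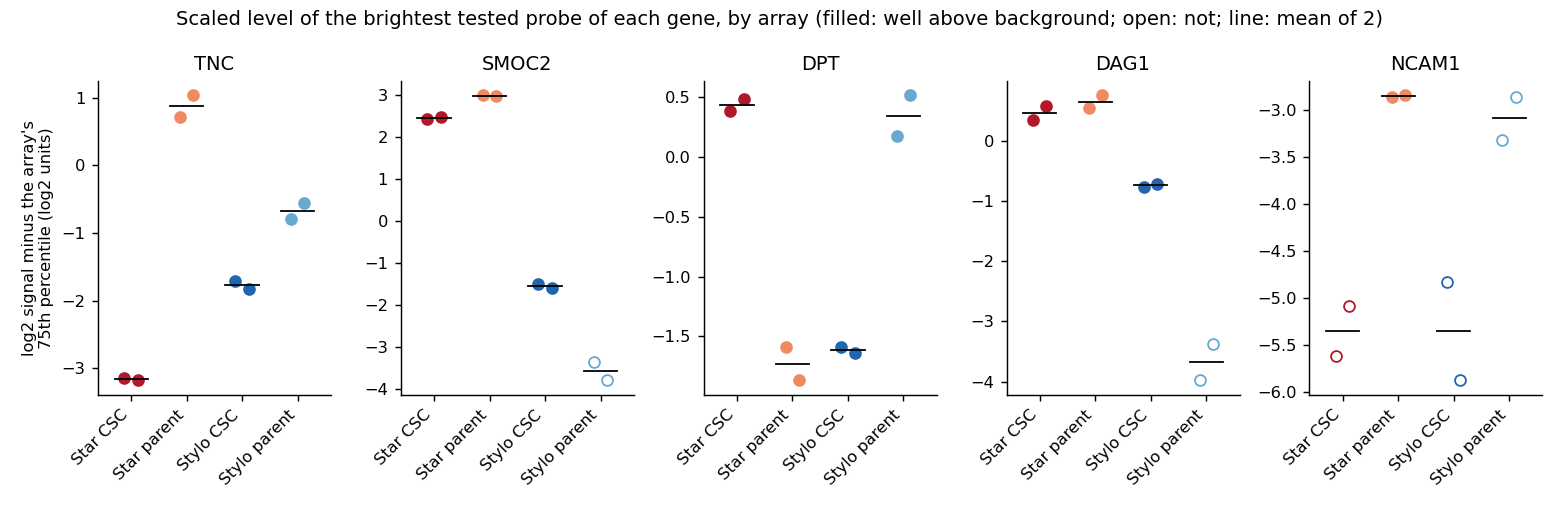
Scaled level (log2 signal minus the array's 75th percentile) of the brightest tested probe of TNC, SMOC2, DPT, DAG1 and NCAM1 on each of the 8 arrays, 2 per group; filled points are well above background, open points are not, and lines are means. TNC runs from -3.18 in Star CSC to 1.04 in Star parent, SMOC2 and DAG1 are high on all Star arrays, DPT is high in Star CSC and Stylo parent, and NCAM1 is above background in Star parent alone.

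SMOC2 separated the Star line from the Stylo line. The brighter probe (A_11_P0000021815) had scaled levels of 2.41 and 2.47 in Star CSC, 2.98 and 2.96 in Star parent, -1.52 and -1.60 in Stylo CSC, and -3.37 and -3.81 in Stylo parent. All 4 Star arrays stood far above all 4 Stylo arrays, and Stylo parent was not well above background. Among sorted cells SMOC2 was higher in Star CSC than in Stylo CSC by 4.003 ± 0.16 (SE) on the log2 scale, or 16.0-fold. Both Star CSC arrays stood above both Stylo CSC arrays. The adjusted p was 2.88e-05 in limma, with the spread fitted on all 8 arrays, and 0.00083 with only the arrays compared. Of all tested probes, 12.6% were called higher in that comparison, where a call needs an adjusted p under 0.05 and a change of at least 2-fold. The unscaled signal was 2851 and 2577 units in Star CSC against 108 and 97.8 units in Stylo CSC.

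On the brighter probe the sorted cells differed from their parent in opposite ways in the 2 lines. SMOC2 was lower in Star CSC than in Star parent (-0.53 ± 0.16, SE), but the unscaled difference was -0.02 and spike-in scaling turned it to 1.13. It was at least 3.15-fold higher in Stylo CSC than in Stylo parent, and no bound could be set with normexp background correction. In unsorted cells SMOC2 was at least 73.0-fold higher in Star parent than in Stylo parent (log2 bound 6.19, and 3.37 with normexp), the value that brought it forward. The second SMOC2 probe (A_11_P161923) was well above background on the 4 Star arrays, at 17.6 and 26.8 units in Star CSC and 13.3 and 13.4 units in Star parent. It was not above background in either Stylo group, at 2.32 and 2.06 units in Stylo CSC and 1.79 and 1.61 units in Stylo parent. On this probe Star CSC minus Star parent was 0.20 ± 0.26 (SE), with overlapping arrays, and the mean of both probes gave -0.17. Star CSC was at least 1.21-fold higher than Stylo CSC on it, and no bound could be set for Star parent over Stylo parent.

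DPT, on its brighter probe and after scaling, was high in Star CSC and Stylo parent and low in Star parent and Stylo CSC. Its brighter probe (A_11_P119426) was well above background on all 8 arrays, with scaled levels of 0.38 and 0.49 in Star CSC, -1.59 and -1.87 in Star parent, -1.59 and -1.64 in Stylo CSC, and 0.17 and 0.52 in Stylo parent. Star CSC overlapped Stylo parent and Stylo CSC overlapped Star parent, so the 4 groups fell onto 2 levels on this probe with this scaling. That pattern was not seen before scaling or on the dimmer probe, as given below. The Star CSC level lay 2.16 ± 0.16 (SE) above Star parent, the difference that brought DPT forward. In the Stylo line DPT fell in Stylo CSC relative to Stylo parent by 1.96 ± 0.16 (SE), at an adjusted p of 9.06e-05 in limma, with both Stylo CSC arrays below both Stylo parent arrays.

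The DPT fall rests on the scaling of the Stylo parent arrays. Unscaled, DPT read 103.0 and 95.1 units in Stylo CSC and 99.6 and 99.0 units in Stylo parent, a log2 difference of -0.0046 (adjusted p = 0.985 in limma), and spike-in scaling gave 0.14 (adjusted p = 0.819 in limma). In the Star line the unscaled signal kept the direction, with 698 and 651 units in Star CSC, against 124 and 90.6 units in Star parent. Before scaling, the 6 arrays outside Star CSC lay between 90.6 and 124 units, and both Star CSC arrays stood above them. The dimmer DPT probe (A_11_P0000033430) read 46.6 and 43.1 units in Star CSC, both well above background, and 11.4 and 6.71 units in Star parent, where 1 of 2 arrays was. It was not above background in Stylo CSC (3.31 and 3.26 units) or Stylo parent (4.46 and 4.48 units). Scaled, the mean level of this probe was -3.48 in Star CSC, -4.13 in Stylo parent, -5.32 in Star parent and -6.53 in Stylo CSC.

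**Figure D2:**
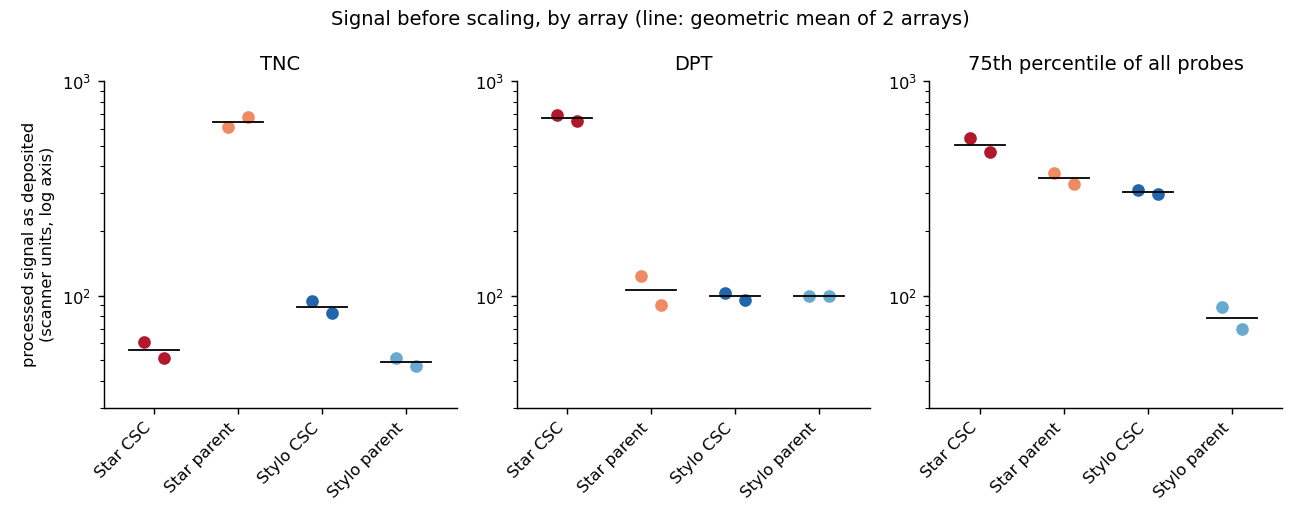
Processed signal as deposited, on a log axis, for the brighter TNC and DPT probes and for the 75th percentile of all gene probes, on each of the 8 arrays; lines are geometric means of 2 arrays. TNC stands out at 612 and 678 units in Star parent and DPT at 698 and 651 units in Star CSC, while the 75th percentile is lowest, at 88.8 and 69.5 units, in Stylo parent.

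The leukocyte markers CD86 and TYROBP were higher in Star CSC than in Star parent, as DPT was. Of 10 such markers 5 had a named probe, and 3 of them were well above background on both Star CSC arrays against 2 on both Star parent arrays. Their summed level, in multiples of the array's 75th percentile, was 1.05 to 1.103 in Star CSC and 0.132 to 0.165 in Star parent. CD86, a co-stimulatory receptor, had the highest mean log2 level of them in Star CSC, -0.03, against -4.01 in Star parent. The mean levels of CD4, CD8A and CD79A were instead lower in Star CSC (-7.75, -5.49 and -4.67) than in Star parent (-7.26, -5.16 and -4.52), and CD4 was not above background on any array. The 6 named fibroblast markers summed to 260 to 285 in Star CSC and 360 to 388 in Star parent, a sum made mostly by COL1A2 and S100A4, while PDGFRB (-2.51 against -2.84) and DCN (-4.28 against -4.40) had higher mean levels in Star CSC. In the Stylo line, no leukocyte marker was above background on both arrays of either group, and the fibroblast sum was 1042 to 1082 in Stylo CSC and 1662 to 1906 in Stylo parent. S100A4, at a mean level of 8.76 in Stylo CSC and 10.72 in Stylo parent, and PDGFRB were lower there, while COL1A1, COL1A2, DCN and THY1 had higher mean levels in Stylo CSC. The part of other cell types in the DPT and TNC differences was not tested.

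DAG1, represented by a single probe (A_11_P000001322), was lowest in Stylo parent. Its scaled level was 0.35 and 0.58 in Star CSC, 0.54 and 0.76 in Star parent, -0.77 and -0.71 in Stylo CSC, and -3.98 and -3.37 in Stylo parent. The Star groups overlapped each other, both stood above Stylo CSC, and Stylo parent was not well above background. Between sorted cells DAG1 was higher in Star CSC than in Stylo CSC by 1.21 ± 0.22 (SE), at an adjusted p of 0.00468 in limma, with both Star CSC arrays above both Stylo CSC arrays. Normexp background correction reduced this to 0.46 (adjusted p = 0.0948 in limma). The unscaled signal was 684 and 693 units in Star CSC, 540.5 and 559 units in Star parent, 181.4 and 181.3 units in Stylo CSC, and 5.60 and 6.68 units in Stylo parent. DAG1 was at least 14.6-fold higher in Star parent than in Stylo parent, the value that brought it forward (log2 bound 3.87, and 0.44 with normexp, under the 2-fold limit). It was at least 5.56-fold higher in Stylo CSC than in Stylo parent, a bound that could not be set with normexp background correction. The Star CSC level lay -0.18 ± 0.22 (SE) from that of Star parent, within the spread of the arrays.

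NCAM1 was well above background in 1 group only. Of its 3 probes, 2 (A_11_P0000020167 and A_11_P050121) were not rated so on any array, and the third (A_11_P00000692), on another transcript record of the gene, was above it in Star parent alone. That probe read 10.9 and 13.7 units in Star CSC, 51.1 and 46.2 units in Star parent, 10.9 and 5.05 units in Stylo CSC, and 8.88 and 9.55 units in Stylo parent. Before scaling Star parent was brighter than every other array, and the other groups lay close to the lowest signal that counted as above background, which was 7.91 to 11.9 units by array. Scaled levels were -5.62 and -5.08 in Star CSC, -2.86 and -2.84 in Star parent, -4.83 and -5.87 in Stylo CSC, and -3.31 and -2.86 in Stylo parent, so that Star parent overlapped Stylo parent. NCAM1 was at least 5.65-fold lower in Star CSC than in Star parent, the value that brought it forward (log2 bound -2.50, but -0.84 with spike-in scaling and -0.99 with normexp, both under the 2-fold limit). The bound for Star parent over Stylo parent was 1.17-fold, under the 2-fold limit, and could not be set with normexp background correction. Between Stylo CSC and Stylo parent, and between Star CSC and Stylo CSC, both groups were below background and no fold is given, so the planned test of NCAM1 in the Stylo line gave no value.

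Members were counted by fold alone, a looser limit than that of a call, which also needs an adjusted p under 0.05. Counted over the brightest tested probe of each gene, with bounds taken at their limit, 3 members were past 2-fold higher in Star parent than in Stylo parent (TNC, SMOC2, DAG1) and 1 lower (DPT), where 24.6% of all tested probes were called higher and 31.9% lower (56.5% either way). Arrays of the pair did not overlap for 4 members and for 87.3% of probes. In Star CSC against Star parent 1 member was past 2-fold higher (DPT) and 2 lower (TNC, NCAM1), where 3.22% of probes were called higher and 6.51% lower (9.72% either way). Arrays did not overlap there for 4 members and 71.8% of probes. Since those comparisons chose the members, nothing is read from these counts. The comparisons that follow share arrays with them, Stylo parent for SMOC2 and DAG1, and Star CSC for TNC, DPT and NCAM1. Their counts are therefore not independent of the choice, and nothing is read from them either. In Stylo CSC against Stylo parent 2 were past 2-fold higher (SMOC2, DAG1) and 2 lower (TNC, DPT), where 21.9% of probes were called higher and 32.1% lower (54.0% either way). Scaled arrays did not overlap for 5 members and 88.9% of probes. The 5 include NCAM1, which was not above background in either group and whose unscaled signals overlapped. In Star CSC against Stylo CSC 3 were past 2-fold higher (SMOC2, DPT, DAG1) and 1 lower (TNC), where 12.6% of probes were called higher and 16.9% lower (29.4% either way), and arrays did not overlap for 4 members and 86.0% of probes. Arrays moved apart in opposite ways with sorting in the 2 lines for SMOC2 and DPT and for 30.9% of probes, and with line in sorted and in unsorted cells for TNC and DPT and for 27.2% of probes. With 2 arrays against 2, an exact permutation test could not go below p = 0.333, so the tests above rest on limma's model over all probes.

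**Figure D3:**
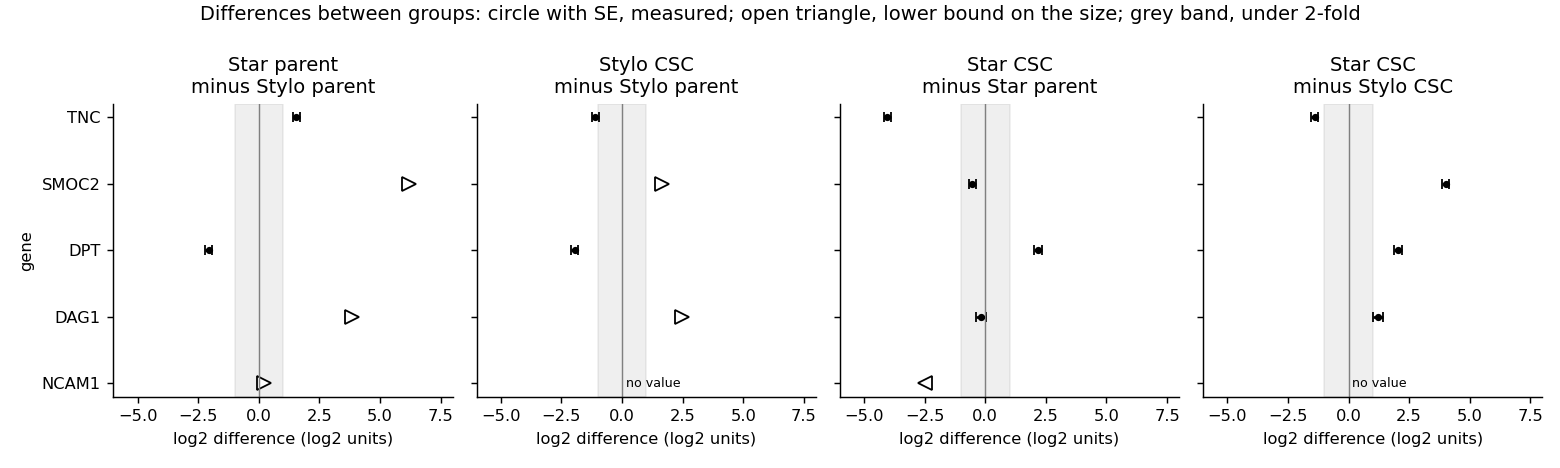
Log2 difference of each gene's brightest tested probe in the 4 comparisons, the group named first minus the one named second; circles with bars are measured differences with their SE, open triangles are lower bounds on the size, and the grey band is under 2-fold. TNC, at -4.04, is the farthest to the left, in Star CSC minus Star parent, and the SMOC2 bound, 6.19, is the farthest to the right, in Star parent minus Stylo parent.

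Few other genes of the same systems could be named. Of 54 further matricellular and matrix glycoproteins none had a named probe here. Of 55 further adhesion receptors 9 were named and 8 tested, all but the scavenger receptor CD36. In Star parent against Stylo parent 3 of the 8 were called higher and 2 lower, with a median log2 change of -0.03 against -0.20 over all tested probes. Of all tested probes, 24.6% were called higher there and 31.9% lower (56.5% either way). ALCAM, an immunoglobulin-type adhesion molecule, rose by 1.43 ± 0.26, ICAM1, a ligand of leukocyte integrins, by 1.36 ± 0.11, and the hyaluronan receptor CD44, which is also a sort marker, by 1.08 ± 0.14 (SE; adjusted p = 0.00296, 7.07e-05 and 0.000564 in limma). CD47, a thrombospondin receptor, fell by 2.00 ± 0.11 and the platelet integrin chain ITGA2B by 1.55 ± 0.13 (adjusted p = 1.57e-05 and 8.66e-05 in limma). Both falls lost their call with spike-in scaling (-1.02 for CD47, adjusted p = 0.0828 in limma, and -0.56 for ITGA2B) and turned positive without scaling (0.16 and 0.61), and CD47 also lost its call with normexp (-0.59).

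In Stylo CSC against Stylo parent 2 of the 8 receptors were called higher and 2 lower, with a median of 0.10 against -0.28 over all tested probes. Of all tested probes, 21.9% were called higher there and 32.1% lower (54.0% either way). ALCAM rose by 1.43 ± 0.26 and VCAM1 was at least 2.89-fold higher, though negative with normexp (-0.92). CD47 fell by 2.11 ± 0.11 and the annexin ANXA2 by 1.03 ± 0.16, but CD47 stood at -0.01 with spike-in scaling and -0.67, not called, with normexp, and ANXA2 turned positive with quantile normalization (0.19), cyclic loess (0.07), normexp (0.40) and spike-in scaling (1.08). In Star CSC against Star parent VCAM1 was called higher (1.76 ± 0.47), but not with normexp (0.23) or quantile normalization (1.84). The integrin chain ITGB3 was called lower (-1.28 ± 0.22), but stood at 0.38 with spike-in scaling. ITGB3 was not called with normexp (-0.95) or without scaling (-0.77). The median was -0.41 against -0.10 over all tested probes, of which 3.22% were called higher and 6.51% lower. The sort marker CD44 (-0.88), ICAM1 (-0.72) and ANXA2 (-0.69) were under the 2-fold limit, with adjusted p-values of 0.00765, 0.00715 and 0.0236 in limma. With spike-in scaling each was positive (0.77, 0.94 and 0.96). CD44 was higher in Stylo CSC than in Stylo parent (0.99, adjusted p = 0.000897 in limma). In Star CSC against Stylo CSC limma called 0 of the 8 at an adjusted p under 0.05 and 2-fold, against 29.4% of all tested probes. The median was -0.46 against -0.10. Under the 2-fold limit, CD44 (-0.80), CD47 (0.32), ITGA2B (-0.59) and ANXA2 (-0.62) had adjusted p-values of 0.00398, 0.0469, 0.0101 and 0.0171 in limma. ANXA2 turned positive with quantile normalization (0.86, adjusted p = 0.00231 in limma), cyclic loess (0.21) and no scaling (0.10), and ITGA2B without scaling (0.13). CD44 stayed negative and CD47 positive under all scalings tried. Without scaling CD44 was at -0.08 and CD47 at 1.03, the latter called higher.

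On the dystroglycan side, 7 of 46 laminin-binding, dystrophin complex and basement membrane genes were named and 2 tested, the intracellular partners dystrophin (DMD) and utrophin (UTRN). UTRN rose in Star parent relative to Stylo parent by 1.63 ± 0.14 and in Stylo CSC relative to Stylo parent by 1.36 ± 0.14 (SE), both negative with normexp (-0.46 and -0.61). DMD rose in Stylo CSC relative to Stylo parent by 1.17 ± 0.10, and was lower in Star CSC than in Stylo CSC (-1.03 ± 0.10), a call lost under every other scaling tried (-0.89 to -0.31). Of 7 sialylation, FGF receptor and kinase partners of NCAM1, FGFR2 was tested, and it was lower in Star CSC than in Star parent (-1.54 ± 0.09, adjusted p = 0.000625 in limma), turning to 0.12 with spike-in scaling. FGFR2 was also lower in Star CSC than in Stylo CSC (-2.28 ± 0.09, adjusted p = 3.31e-05 in limma) and was called lower there under all scalings tried.

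The proteoglycans DCN and BGN, of which decorin is a binding partner of DPT, were the tested ones among 5 DPT partners. DCN, called lower in Star CSC than in Stylo CSC (-7.00 ± 0.10 SE; adjusted p = 7e-06 in limma), went opposite to DPT there, which was 2.05 ± 0.16 higher. BGN was called lower in the same comparison (-1.18 ± 0.15), but not with median scaling, spike-in scaling, normexp or no scaling. In Star parent against Stylo parent DCN fell by 5.47 ± 0.10 and BGN rose by 2.60 ± 0.15 (adjusted p = 4.36e-06 and 2.09e-05 in limma). Both were called under all scalings tried. DPT was also lower there (-2.07), but stood at 0.09 without scaling. In Stylo CSC against Stylo parent DCN rose by 1.64 ± 0.10 and BGN by 3.06 ± 0.15 (adjusted p = 3.42e-05 and 1.81e-05 in limma). These rises were called under all scalings tried, while DPT was lower (-1.96). That DPT fall was lost with spike-in scaling (0.14) and without scaling (-0.0046).

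The genes whose scaled levels most resembled each member were taken as the 3 highest Pearson correlations over the 8 arrays among 973 named and tested genes. The 8 points come in 4 pairs of replicates, share array and slide, and are given as a description. TNC was most like PIGR (r = 0.95), the alpha-adrenergic receptor ADRA1A (0.94) and the lysosomal fucosidase FUCA1 (0.94), although FUCA1 spanned only 0.44 log2 units against 4.22 for TNC. SMOC2 was most like RHPN2 (1.00 after rounding), OAZ2 (0.99) and the aminopeptidase ANPEP (0.99), and of these ANPEP had the widest range, 4.92 log2 units against 6.79 for SMOC2. DPT was most like the immune adaptor TYROBP and the MHC class II gene DLA-DQB1 (0.98 each), which were well above background on 2 and 4 of 8 arrays, and ST13 (0.97). DAG1 was most like the spindle gene ASPM, the cholesterol hydroxylase CH25H and DSTYK (0.99 each). NCAM1 was most like the sodium pump subunit ATP1B1 (0.98), ABCA4 (0.96) and PIGR (0.95), with 6 of its own 8 values below background.

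**Figure D4:**
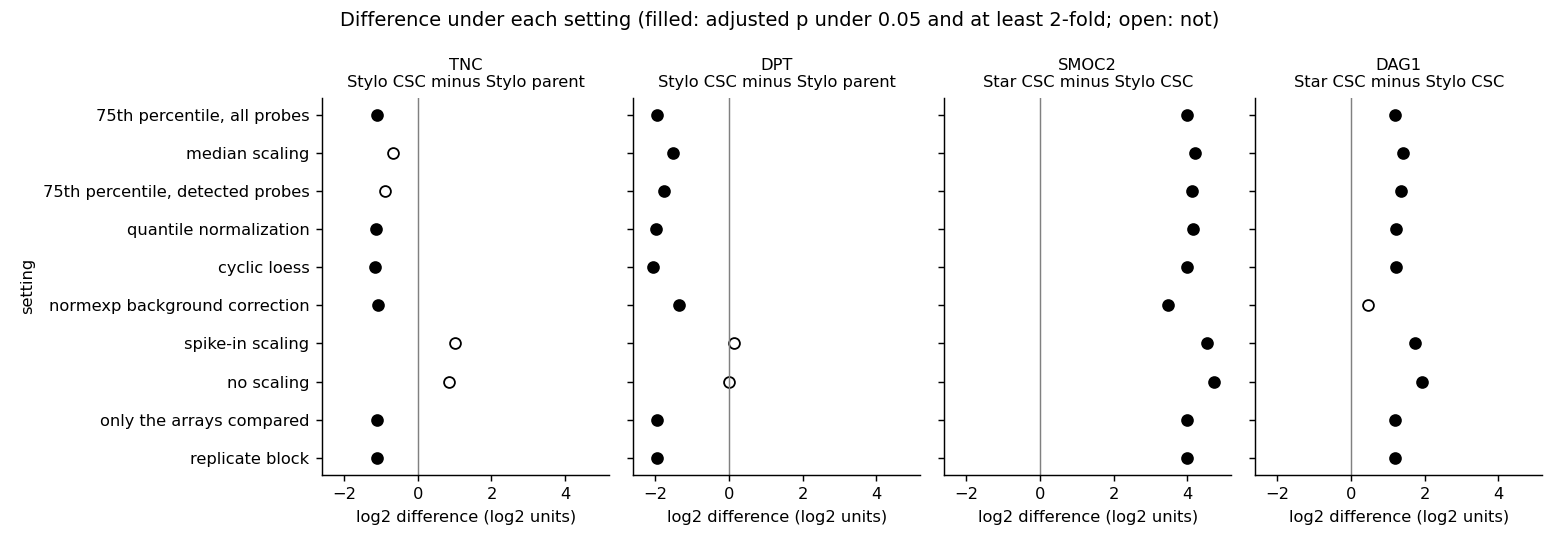
Log2 difference for the 4 tested results under each scaling, background correction and fit (filled, adjusted p under 0.05 and at least 2-fold; open, not). SMOC2 stays filled at 3.49 to 4.72, DAG1 loses its call with normexp (0.46), and TNC and DPT lie above 0 with spike-in scaling (1.00 and 0.14), and at 0.85 and -0.0046 without scaling.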

How the data were processed

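Agilent Feature Extraction 11.5.1.1 turned the slide images into spot values, per the submitters' processing notes. The authors' deposited scanner files give each spot's processed signal as an intensity with flags for background, per the file headers. A deposited matrix of the series holds log2 values, which matched the log2 processed signal minus each array's 75th percentile, centred on each probe's median (correlation 1.00 on every array). Its column medians were -0.27 to 1.01.

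Outlier spots were left out, spots of a probe averaged and the 75th percentile subtracted. A probe was tested if rated well above background on each array of some group (8 of the 10 member probes). Gene names came from a RefSeq table (UU_Cfam_GSD_1.0, names only), which named 2353 of 43603 probes. limma 3.58.1 in R 4.3.3 fitted 4 group means on all 8 arrays, with Benjamini-Hochberg adjustment over about 26823 probes and two-sided tests. The brightest tested probe stands for a gene. The fit was tested on simulated data. The members and lists were chosen with earlier results of these data known. Other genes are named where called among the 3 largest rises and falls of each list, or where a count called for them. Deviations from group means correlated at -0.07 to 0.07 between arrays of the same number, so the numbers were not treated as pairs. Alternatives covered scaling, background correction, filters, the replicate block, the matrix and each array left out in turn. The number of arrays limits precision. No sequences or coordinates are used here.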

Additional observations from a re-analysis of the deposited data

Results flagged for a closer look

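TNC differed between the lines in opposite ways in sorted and in unsorted cells: on the log2 scale, Star CSC minus Stylo CSC was -1.39 and Star parent minus Stylo parent was 1.55, with no overlap of arrays in either. The difference between these effects was not tested, since the Star arrays had brought TNC forward. The first was under the 2-fold limit with spike-in scaling (-0.85), normexp (-0.97) and no scaling (-0.67), and the second with normexp (0.89), all in the same directions. Opposite shifts of this kind were seen for 27.2% of tested probes.

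DPT also differed between the lines in opposite ways on its brighter probe, with 2.05 for Star CSC minus Stylo CSC and -2.07 for Star parent minus Stylo parent. Seen from sorting, DPT was 2.16 for Star CSC minus Star parent and -1.96 for Stylo CSC minus Stylo parent. Neither contrast of effects was tested. Without scaling, Star parent minus Stylo parent turned to 0.09 and Stylo CSC minus Stylo parent to -0.0046, so the opposite direction was not held there.

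On its brighter probe SMOC2 was -0.53 for Star CSC minus Star parent and 2.03 for Stylo CSC minus Stylo parent. Stylo parent was not well above background, so the size of 2.03 is not measured and only the bound of 1.66 holds. That bound could not be set with normexp. With spike-in scaling the first turned to 1.13, and on the second probe it was 0.20, with overlapping arrays. The difference was not tested, and 30.9% of tested probes had sorting shifts of opposite sign in the lines.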

How the results depend on the processing

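Of the 4 tested member results, SMOC2 in Star CSC against Stylo CSC kept its direction and call under all 21 alternatives. DAG1 in the same comparison lost its call with normexp alone (0.46). DPT in Stylo CSC against Stylo parent turned to 0.14 with spike-in scaling and lost its call without scaling (-0.0046), an alternative chosen after seeing the data. TNC there turned to 1.00 with spike-in scaling and 0.85 without scaling, and lost its call with median scaling (-0.67), the 75th percentile of detected probes (-0.90), the mean of both probes (-0.43) and without Stylo parent replicate 2 (-0.99). Spike-in medians of replicate arrays differed by 0.17 to 0.66 on the log2 scale. Leaving out each array gave -1.21 to -0.99 for TNC, -2.13 to -1.79 for DPT, 3.96 to 4.04 for SMOC2 and 1.09 to 1.32 for DAG1. With only the arrays compared in the fit, the adjusted p in limma was 0.00294 for TNC, 0.00112 for DPT, 0.00083 for SMOC2 and 0.00337 for DAG1. Among the described differences, DPT in Star parent against Stylo parent reversed without scaling (0.0925), and in Star CSC against Star parent spike-in scaling turned SMOC2 to 1.13 and DAG1, which was within the array spread, to 1.47. The causes were not tested.

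Probes called numbered 2608 in Star CSC against Star parent, and 21501 with spike-in scaling, 1045 with normexp, 4292 without scaling and 7922 with no limit on the fold. In Star CSC against Stylo CSC they numbered 7897, and 3977 with normexp and 15288 with no limit on the fold. Without the filter on dim probes, 26734 against 15167 were called in Star parent against Stylo parent and 28650 against 14483 in Stylo CSC against Stylo parent. Leaving out each array gave 2205 to 3051, 7210 to 8149, 14757 to 15508 and 13870 to 15046 calls in that order. The share of calls that were higher was 33.1%, 42.8%, 43.5% and 40.6% in the same order, ranging over the scalings from 32.8% to 99.3%, 35.1% to 82.6%, 25.0% to 94.1% and 25.5% to 98.5%. The median of all tested probes moved over the scalings from -0.82 to 1.97 in Star parent against Stylo parent and from -0.76 to 1.83 in Stylo CSC against Stylo parent. With the replicate number as a block, no member's call changed (TNC -1.10, adjusted p = 0.00165 in limma), and calls numbered 2525, 7867, 15147 and 14458. Bounds for dim groups could not be set from the deposited matrix. Signal near background limits NCAM1 and every Stylo parent value of SMOC2 and DAG1.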
